A study of Mus musculus with 4 samples.

Results

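The genes described here are 51 genes that carry a cell through mitosis: regulators of the G2/M transition, mitotic kinesins, kinetochore proteins, checkpoint proteins, and proteins of the spindle, condensin and cytokinesis. They were chosen by gene symbol, as members of a list of such genes, out of 24421 genes in the count table. The list was drawn up with earlier results of these data known, so counts of its lower genes, beside shares of all genes, are descriptions. All 51 were present and all 51 passed the filter on low counts, as did 14140 genes in all. RNA was sequenced from LSK cells, the lineage-negative bone marrow cells with Kit and Sca-1 on their surface, which hold the blood stem cells and the earliest progenitors. There were 2 libraries from control littermates (WT) and 2 from Zfp521-/- mice (KO). The 2 RNA samples of a genotype are described as independent and drawn from pools of cells; the age and sex of the mice and the animals in a pool are not given in the labels. The p-values therefore cover only variation among these 4 samples, part of which may be technical. The series' title places the effect of Zfp521, a zinc finger protein, in the marrow microenvironment, and the libraries hold sorted blood cells alone.

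Cells entering mitosis switch on a shared program. Cyclin B with Cdk1 starts mitosis, kinesins and spindle proteins build the spindle, kinetochores attach chromosomes to it, and a checkpoint holds the anaphase-promoting complex (APC/C) until attachment is complete. Most of these transcripts are made late in the cycle, when the B-Myb and FoxM1 factors act with the MuvB complex at a promoter element called the cell cycle homology region (CHR). Stem cells of adult marrow are mostly at rest, and multipotent progenitors of the same sort divide more often, so a bulk LSK library averages over both.

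Library totals ran from 17787425 to 29863594 counts. Reads of Zfp521 itself numbered 1561 and 1429 in the WT libraries against 308 and 215 in the KO libraries, a log2 fold change of -2.19 (SE 0.23, adjusted p = 0.000491). Kit stood at 617 and 708 CPM (counts per 1000000 of the TMM-scaled library) in WT and at 697 and 702 CPM in KO, and Ly6a, which encodes Sca-1, at 47.7, 36.9, 37.3 and 67.0 CPM in the same order. The list of 5 LSK markers also held Cd34, Flt3 and Cd48, which are not part of the sort as described above. Of the 5, Cd34 was lower, from 499 and 495 CPM in WT to 369 and 282 CPM in KO. Its log2 fold change was -0.61 (edgeR adjusted p = 0.0408). Cd48 was at -0.60 (adjusted p = 0.106) and Flt3 at 0.40 (adjusted p = 0.104), and neither passed. Genes of lineages that the sort should remove were present at varied levels: Cd3e of T cells between 0.0718 and 0.995 CPM, Cd4 between 24.4 and 28.9 CPM, Klrb1c of NK cells between 4.81 and 26.1 CPM, Slc4a1 of red cells between 46.7 and 506 CPM and Ngp of neutrophils between 111 and 256 CPM. The Xist transcript took 0.00230% of counts in WT replicate 2 and between 0.538% and 1.30% in the other 3 libraries, so the WT libraries differed from each other in this respect. Counts of calls without each library are therefore given below.

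Mitosis genes were lower in KO. In edgeR's quasi-likelihood test, 37 of the 51 passed an adjusted p of 0.05 on the lower side and 0 on the higher side. Of all 14140 genes tested, 3.01% were lower and 3.77% were higher. No member was higher at an unadjusted p under 0.05 or in DESeq2. Among the 7930 genes whose mean level lay within the members' own range, 4.88% were lower. All 51 fold changes were negative, with a median log2 fold change of -0.91 against 0.02 for all genes tested, and they ran from -1.28 for Ccnb2 to -0.11 for Cenpa. At least 2-fold lower and past the threshold were 24 members, a class that held 1.05% of all genes. In 50 of the 51 both KO libraries lay below both WT libraries, an arrangement seen in 27.6% of all genes tested; Cenpa was the exception.

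Summed over the 51 genes, mitotic transcripts made up 7791 and 8028 CPM in the WT libraries and 4406 and 4667 CPM in the KO libraries. The groups did not overlap, and the KO sum was 57.4% of the WT sum. Mki67 had the highest level and weighed most in these sums, with 1556 and 1668 CPM in WT and 1229 and 1195 CPM in KO. Its log2 fold change was -0.41. Replicates lay close together: the median distance between the replicates of a gene was 0.137 on the log2 scale in WT and 0.219 in KO. In bulk RNA, fewer cells in mitosis and less mitotic RNA per cell cannot be told apart.

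**Figure D1:**
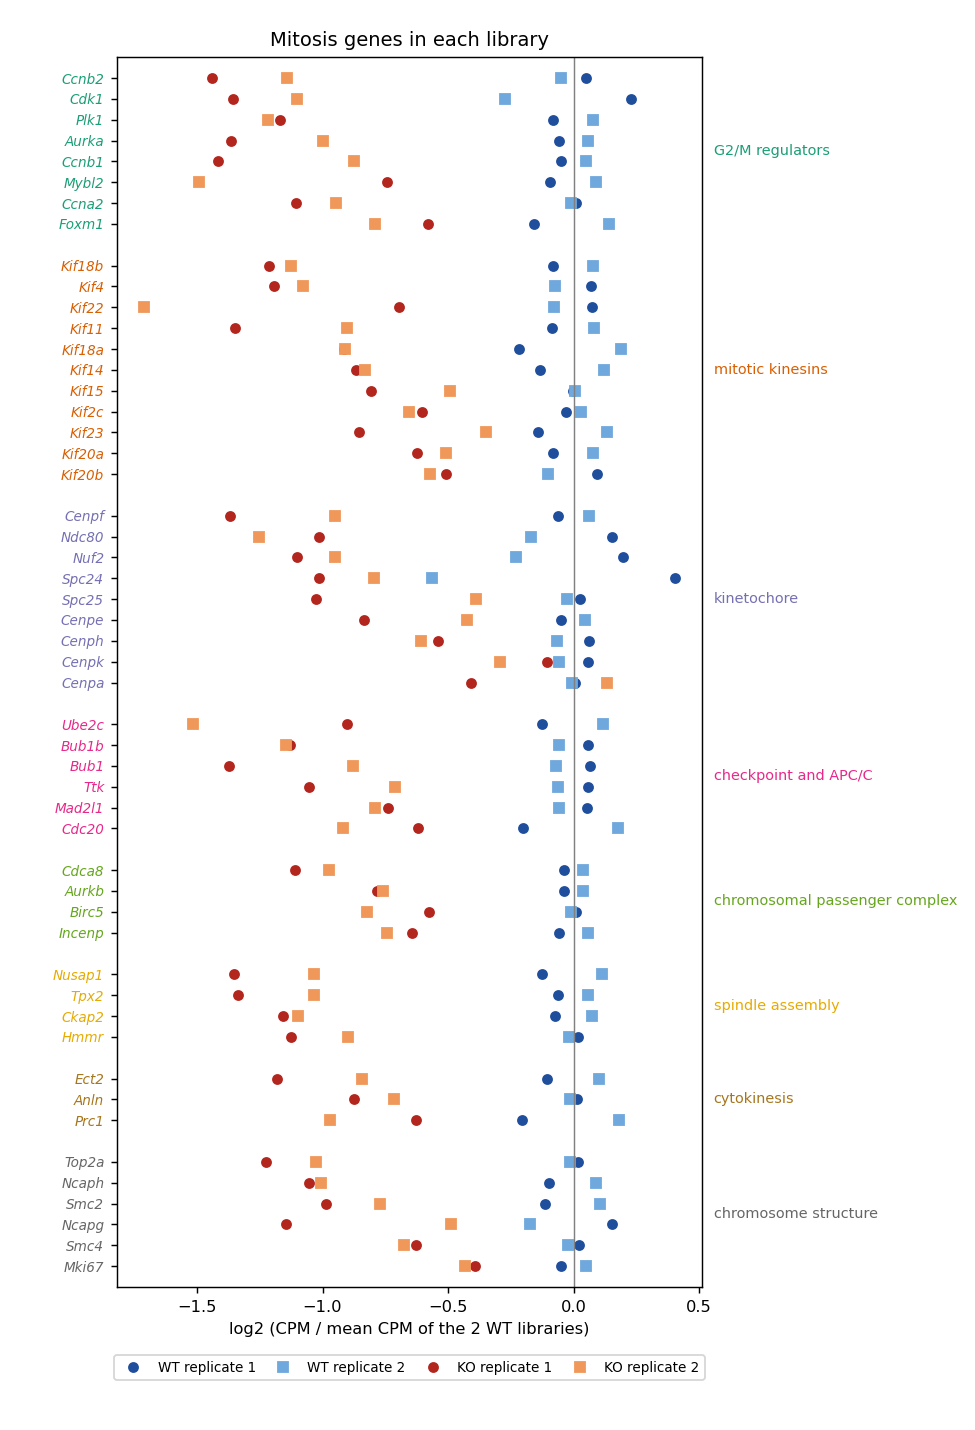
Level of each of the 51 mitosis genes in each library, as log2 of its CPM over the mean CPM of the 2 WT libraries, grouped by role. WT libraries are blue, KO libraries red and orange; in 50 genes both KO points lie left of both WT points, and in Cenpa they do not.

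The number of calls moved with the WT libraries. Leaving out WT replicate 1 gave 14 lower members and leaving out WT replicate 2 gave 13, while the median fold change was -0.97 and -0.95. Leaving out KO replicate 1 gave 39 and leaving out the other KO library gave 37, with medians of -0.89 and -1.02. Over all genes tested, lower calls numbered 425 with all 4 libraries, 95 and 101 without the WT libraries in turn, and 1161 and 417 without the KO libraries in turn, so the count over all genes also fell without either WT library. Lower with all 4 libraries and also with any 1 library left out were 9 genes: Top2a, Ccnb2, Ccna2, Bub1b, Tpx2, Nusap1, Kif4, Kif11 and Cenpf. How many of all genes tested passed in every one of these fits was not counted, so no share stands beside the 9. The cause of the fall without a WT library was not tested. In these fits the lone library of a group is assumed to vary like the other group.

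**Figure D2:**
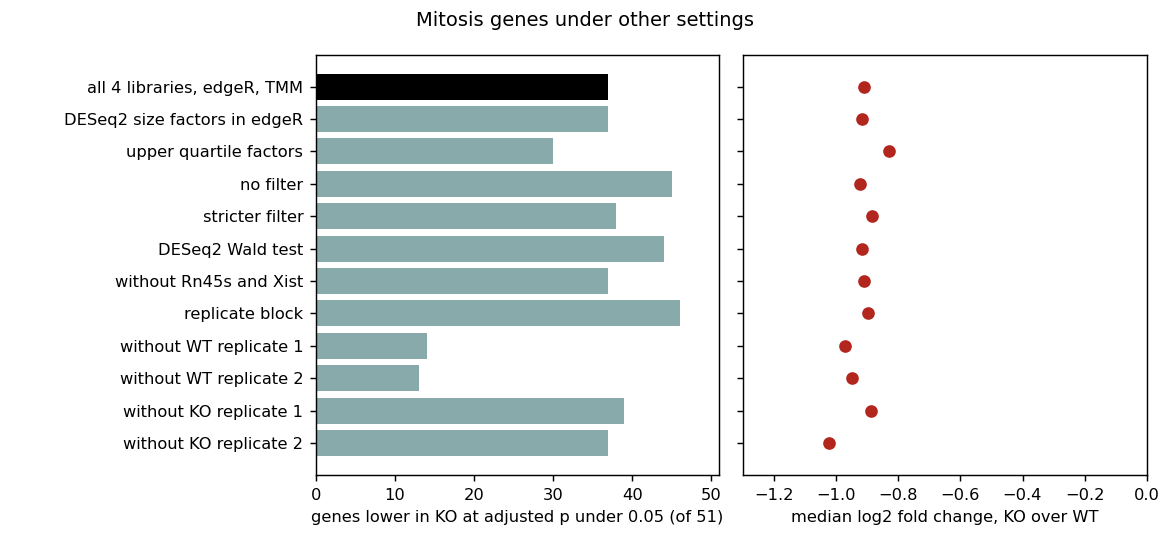
Number of the 51 genes lower in KO past the adjusted p of 0.05 (bars, left) and their median log2 fold change (points, right) under each setting. The count falls to 14 and 13 without either WT library, while the median lies between -1.02 and -0.83 throughout.

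The promoters of these genes were searched for letters of the known late cell cycle elements. RefSeq promoter sequences (GRCm38.p6, the genome of mm10, 250 bases before the start site to 50 after) were matched by symbol for 43 of the 51 genes, some with several promoters, 47 promoters in all; unmatched were Aurkb, Ccna2, Foxm1, Incenp, Kif20a, Smc4, Spc24 and Tpx2. The common form of the CHR, TTTGAA, was searched on both strands, and so was its variant form, written TTCGAA. The box bound by the factor NF-Y, CCAAT, was searched on both strands too. Each motif was counted by itself, so matches of different motifs may overlap. CHR letters were in 34 of the 47 promoters (72.3%), against 19.2% of all 32851 promoters in the table, and CCAAT was in 35 (74.5%), against 37.4%. By gene, 27 of 43 (62.8%) had both in 1 promoter, against 8.61% of all genes. A match is a description of letters and does not show that a factor binds.

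The stretches shown, from 250 bases before the start site to 30 after, are those of the 4 members with the smallest p among those with a CHR match, and that of Cenpa, whose p was the largest. They are given 5′ to 3′ on the gene's strand, with CHR and CCAAT matches on either strand in capitals. Top2a is at chr11:99024160-99024439 (minus strand), Ccnb2 at chr9:70421525-70421804 (minus), Bub1b at chr2:118597961-118598240 (plus), Kif4 at chrX:100625815-100626094 (plus) and Cenpa at chr5:30666636-30666915 (plus).
Top2a: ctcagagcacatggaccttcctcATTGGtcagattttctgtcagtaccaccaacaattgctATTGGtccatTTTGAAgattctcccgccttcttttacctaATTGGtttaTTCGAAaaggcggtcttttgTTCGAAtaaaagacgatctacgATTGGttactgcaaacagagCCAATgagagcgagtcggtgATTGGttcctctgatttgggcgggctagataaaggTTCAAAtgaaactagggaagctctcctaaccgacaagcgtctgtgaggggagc
Ccnb2: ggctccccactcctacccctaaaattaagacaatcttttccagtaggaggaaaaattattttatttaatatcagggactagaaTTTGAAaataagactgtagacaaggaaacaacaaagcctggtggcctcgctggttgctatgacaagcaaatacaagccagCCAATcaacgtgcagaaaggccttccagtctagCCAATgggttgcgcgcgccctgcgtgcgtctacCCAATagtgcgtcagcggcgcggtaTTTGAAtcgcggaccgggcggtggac
Bub1b: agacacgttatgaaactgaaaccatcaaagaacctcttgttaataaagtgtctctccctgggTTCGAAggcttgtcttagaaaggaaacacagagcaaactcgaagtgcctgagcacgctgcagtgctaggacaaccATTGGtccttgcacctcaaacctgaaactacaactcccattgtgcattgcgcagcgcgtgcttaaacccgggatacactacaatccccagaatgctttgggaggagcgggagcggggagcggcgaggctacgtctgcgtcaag
Kif4: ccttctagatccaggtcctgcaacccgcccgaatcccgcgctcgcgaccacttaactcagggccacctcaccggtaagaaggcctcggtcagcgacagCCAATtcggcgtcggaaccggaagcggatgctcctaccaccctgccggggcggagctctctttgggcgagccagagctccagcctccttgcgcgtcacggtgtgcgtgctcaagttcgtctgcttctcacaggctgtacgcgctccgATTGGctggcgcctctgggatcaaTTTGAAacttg
Cenpa: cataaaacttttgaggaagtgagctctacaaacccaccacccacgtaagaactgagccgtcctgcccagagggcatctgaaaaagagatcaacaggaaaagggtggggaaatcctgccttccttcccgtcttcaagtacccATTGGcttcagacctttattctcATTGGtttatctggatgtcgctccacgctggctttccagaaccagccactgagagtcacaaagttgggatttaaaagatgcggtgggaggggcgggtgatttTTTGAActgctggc
Positions of a match are those of its first base, counted from the start site as +1. In Ccnb2 the 3 CCAAT boxes stood at -87, -54 and -21, each 33 bases from the next, with a CHR match at 5. Top2a had 6 CCAAT and 4 CHR matches, the CHR nearest to the start at -23. Kif4 had a CHR match at 20 and a CCAAT on the reverse strand at -5. Bub1b had a CHR match at -188 and another at 41, past the stretch shown. Cenpa, whose transcript level overlapped between the groups, had the same letters as genes that were lower, with a CHR match at 17 and CCAAT at -109 and -86.

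Matches gathered near the start site. A CHR match within 50 bases of it, a window chosen after the positions were seen, was found in 28 of the 43 genes (65.1%) and in 6.12% of all genes in the table. Pairs of CCAAT boxes 31 to 34 bases apart, a distance also chosen after they were seen, were found in 8 of the 43 (18.6%), Aurka, Ccnb1, Ccnb2, Cdca8, Cdk1, Hmmr, Spc25 and Ube2c, against 1.37% of all genes. By these letters, 23 of 32 genes with a CHR match were lower in KO (median -1.02), and 8 of 11 without one (median -0.91). Those 11 were Birc5, Ccnb1, Cenpe, Cenph, Cenpk, Kif18a, Mad2l1, Mybl2, Ncaph, Nuf2 and Nusap1, of which Birc5, Kif18a, Mad2l1, Mybl2, Ncaph, Nuf2 and Nusap1 had no CCAAT match either. No match says that these letters are not in this window.

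**Figure D3:**
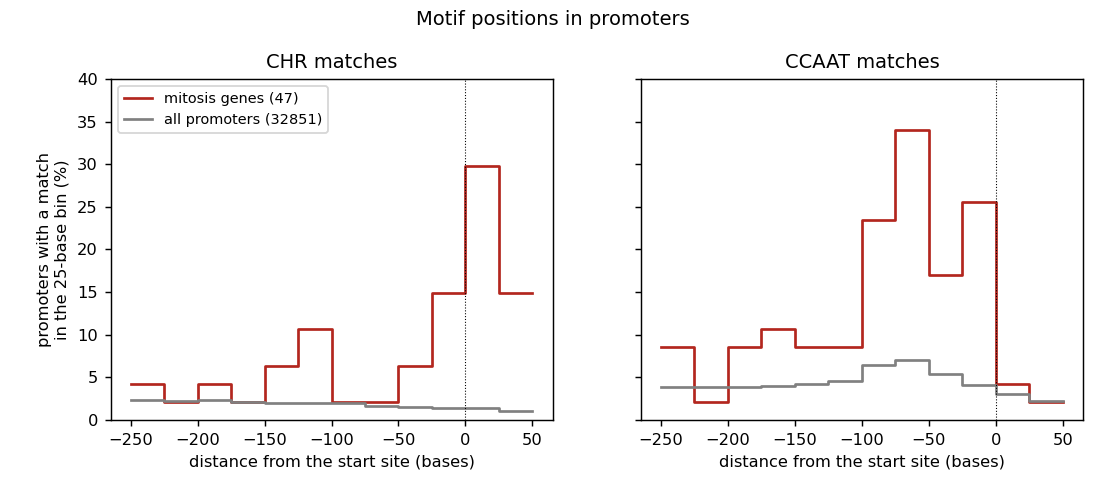
Share of promoters with a CHR match (left) or a CCAAT match (right) starting in each 25-base bin, by distance from the start site, for the 47 promoters of mitosis genes (red) and all 32851 promoters (grey). In the mitosis genes CHR matches peak in the bin that starts at 0, at 29.8% of promoters, and CCAAT matches in the bin that starts at -75, at 34.04%.

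All 8 regulators of the G2/M transition were lower in KO, with a median of -1.15. Ccnb2, a cyclin that activates Cdk1, stood at 115 and 107 CPM in WT and at 41.0 and 50.4 CPM in KO, a log2 fold change of -1.28 (SE 0.18, adjusted p = 0.00270), the largest change of all members. Ccna2, the cyclin of S phase and early mitosis, had 227 and 223 CPM in WT and 105 and 117 CPM in KO (-1.02, SE 0.15, adjusted p = 0.00347). The WT libraries were nearly level for both cyclins, and every KO value was below the WT values. Cdk1, the kinase of mitotic entry, had 83.5 and 59.0 CPM in WT against 27.8 and 33.2 CPM in KO (-1.22, SE 0.22, adjusted p = 0.0106), with a wider gap between the WT libraries. Ccnb1 (-1.12), the polo kinase Plk1 (-1.19) and the spindle pole kinase Aurka (-1.17) fell by similar amounts.

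Both transcription factors of the program were lower as well. Mybl2, which encodes B-Myb, had 41.7 and 47.3 CPM in WT and 26.5 and 15.8 CPM in KO (-1.07, SE 0.27, adjusted p = 0.0389). Foxm1 changed least among the regulators, from 95.8 and 118 CPM in WT to 71.5 and 61.7 CPM in KO (-0.68, SE 0.18, adjusted p = 0.0446). Without WT replicate 1, 2 of the 8 regulators were lower, and without WT replicate 2, 3; Mybl2 and Foxm1 also missed the threshold without KO replicate 2, where 6 were lower.

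Of 11 mitotic kinesins, motor proteins that move along microtubules, 6 were lower, with a median of -0.85. Kif4, a chromosome-bound kinesin of the spindle midzone, is encoded on the X chromosome and had 117 and 106 CPM in WT against 48.8 and 52.9 CPM in KO (-1.13, SE 0.17, adjusted p = 0.00374). Kif11, also called Eg5, pushes the spindle poles apart and had 301 and 337 CPM in WT and 125 and 170 CPM in KO (-1.11, SE 0.17, adjusted p = 0.00467). Kif18b, which acts at microtubule ends, had 58.2 and 65.0 CPM in WT and 26.6 and 28.2 CPM in KO (-1.17, SE 0.20, adjusted p = 0.00774). The groups stayed apart in all 3. Kif14 (-0.85), Kif15 (-0.64) and Kif18a (-0.91) were also lower.

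The kinesins that did not pass were Kif22, Kif20b, Kif23, Kif20a and Kif2c, with fold changes from -1.12 to -0.54. Kif2c, a microtubule depolymerase at the centromere, had the largest p, with 23.7 and 24.7 CPM in WT and 15.96 and 15.4 CPM in KO (-0.63, SE 0.26, adjusted p = 0.161). Kif22 had as large a fold change as Kif11, but its KO libraries differed, at 26.5 and 13.1 CPM against 45.2 and 40.7 CPM in WT (-1.12, SE 0.31, adjusted p = 0.0516); it was lower without KO replicate 1 (-1.72, adjusted p = 0.000795). Kif20a and Kif23, which act at the midzone in cytokinesis, both missed the threshold, at -0.57 and -0.58. Leaving out WT replicate 1 left 3 kinesins lower and leaving out the other WT library left 2; the KO libraries left out in turn gave 7 and 6.

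Kinetochore genes spanned the widest range of the 8 roles. Of 9, 3 were lower, and the fold changes ran from -1.14 to -0.11 around a median of -0.67. Cenpf, a large protein of the outer kinetochore, had 209 and 228 CPM in WT and 84.8 and 113 CPM in KO (-1.14, SE 0.17, adjusted p = 0.00407). Ndc80 and Nuf2 are partners in the complex that grips microtubules. Ndc80 had 91.1 and 72.9 CPM in WT and 40.6 and 34.4 CPM in KO (-1.13, SE 0.20, adjusted p = 0.00856), and Nuf2 had 69.4 and 51.6 CPM in WT and 28.2 and 31.3 CPM in KO (-1.02, SE 0.22, adjusted p = 0.0196).

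The other pair of subunits of that complex, Spc24 and Spc25, did not pass. Spc24 differed between the WT libraries, at 74.5 and 38.04 CPM, against 27.9 and 32.5 CPM in KO (-0.90, SE 0.29, adjusted p = 0.0816). Its fold change was -1.32 (adjusted p = 0.0314) without WT replicate 2 and -0.34 without WT replicate 1. Spc25 was at -0.67 (adjusted p = 0.151). The motor Cenpe was close to the threshold (-0.62, adjusted p = 0.0536). Cenph and Cenpk belong to the inner kinetochore. Cenph was at -0.57 (adjusted p = 0.123). Cenpk had 17.6 and 16.2 CPM in WT and 15.7 and 13.8 CPM in KO (-0.20, SE 0.28, adjusted p = 0.709). Cenpa, the histone H3 variant of the centromere, had 46.2 and 45.8 CPM in WT and 34.6 and 50.4 CPM in KO (-0.11, SE 0.22, adjusted p = 0.795), so its KO libraries lay on either side of the WT libraries, and its sign turned without KO replicate 1 (0.13, adjusted p = 0.745). Leaving out the WT libraries in turn gave 1 and 4 lower kinetochore genes, leaving out the KO libraries in turn gave 3 and 6, and DESeq2 gave 5.

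Of 6 genes of the spindle checkpoint and of its target, the APC/C, 5 were lower, with a median of -0.99. Bub1b, which encodes the checkpoint protein BubR1, had 136 and 125 CPM in WT and 59.6 and 59.0 CPM in KO (-1.14, SE 0.16, adjusted p = 0.00290). The checkpoint kinase Bub1 had 78.7 and 71.5 CPM in WT and 29.0 and 40.8 CPM in KO (-1.11, SE 0.21, adjusted p = 0.0132). In both the groups were well apart. Ube2c, the ubiquitin-conjugating enzyme of the APC/C, had 169 and 200 CPM in WT and 98.8 and 64.7 CPM in KO (-1.18, SE 0.20, adjusted p = 0.00852).

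The checkpoint kinase Ttk (-0.87) and Mad2l1 (-0.76), the Mad2 protein that holds Cdc20, were lower too. Cdc20, the APC/C activator, had 44.7 and 58.0 CPM in WT and 33.4 and 27.1 CPM in KO (-0.76, SE 0.22, adjusted p = 0.0641), and did not pass although the groups did not overlap. Leaving out WT replicate 1 left 2 of the 6 lower, and leaving out the other WT library left 1.

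The 4 genes of the chromosomal passenger complex, which corrects wrong attachments and then moves to the midzone, were lower together, with a median of -0.73. Cdca8, the subunit known as borealin, had 98.4 and 104 CPM in WT and 46.8 and 51.4 CPM in KO (-1.04, SE 0.17, adjusted p = 0.00663). The kinase of the complex, Aurkb, had 81.0 and 85.3 CPM in WT and 48.4 and 49.1 CPM in KO (-0.77, SE 0.17, adjusted p = 0.0258). Its scaffold Incenp had 92.6 and 100 CPM in WT and 61.7 and 57.6 CPM in KO (-0.69, SE 0.17, adjusted p = 0.0344), and survivin, encoded by Birc5, had 73.9 and 72.8 CPM in WT and 49.1 and 41.4 CPM in KO (-0.69, SE 0.18, adjusted p = 0.0455). Replicates differed little in these genes, but 1 was lower without WT replicate 1, none without WT replicate 2 and 2 with upper quartile factors.

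The 4 spindle assembly genes fell by about as much as the cyclins, with a median of -1.15. Tpx2, which activates Aurora A on the spindle, had 163 and 177 CPM in WT and 67.4 and 83.3 CPM in KO (-1.18, SE 0.17, adjusted p = 0.00290). Nusap1, a microtubule-bundling protein, had 156 and 184 CPM in WT and 66.6 and 83.1 CPM in KO (-1.19, SE 0.18, adjusted p = 0.00347). Hmmr, a spindle pole protein, had 114 and 111 CPM in WT and 51.6 and 60.3 CPM in KO (-1.01, SE 0.17, adjusted p = 0.00752). Ckap2 had 43.1 and 47.7 CPM in WT and 20.3 and 21.2 CPM in KO (-1.13, SE 0.22, adjusted p = 0.0143). The KO sum of these genes was 45.5% of the WT sum, the lowest of the 8 roles. It was 62.9% for chromosome structure, where Mki67 was the largest part of the sum. The difference between roles was not tested. Without either WT library, 2 of the 4 were lower.

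The 3 cytokinesis genes were lower as well. Ect2, which activates RhoA at the cleavage site, had 63.1 and 72.9 CPM in WT and 29.98 and 37.9 CPM in KO (-1.002, SE 0.21, adjusted p = 0.0169). Anln, the scaffold protein anillin, had 115 and 113 CPM in WT and 62.3 and 69.6 CPM in KO (-0.79, SE 0.16, adjusted p = 0.0177). Prc1, which bundles midzone microtubules and recruits Kif4, had 78.3 and 102 CPM in WT and 58.5 and 46.1 CPM in KO (-0.79, SE 0.20, adjusted p = 0.0405). None of the 3 passed without either WT library, and Prc1 also missed the threshold without KO replicate 2.

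**Figure D4:**
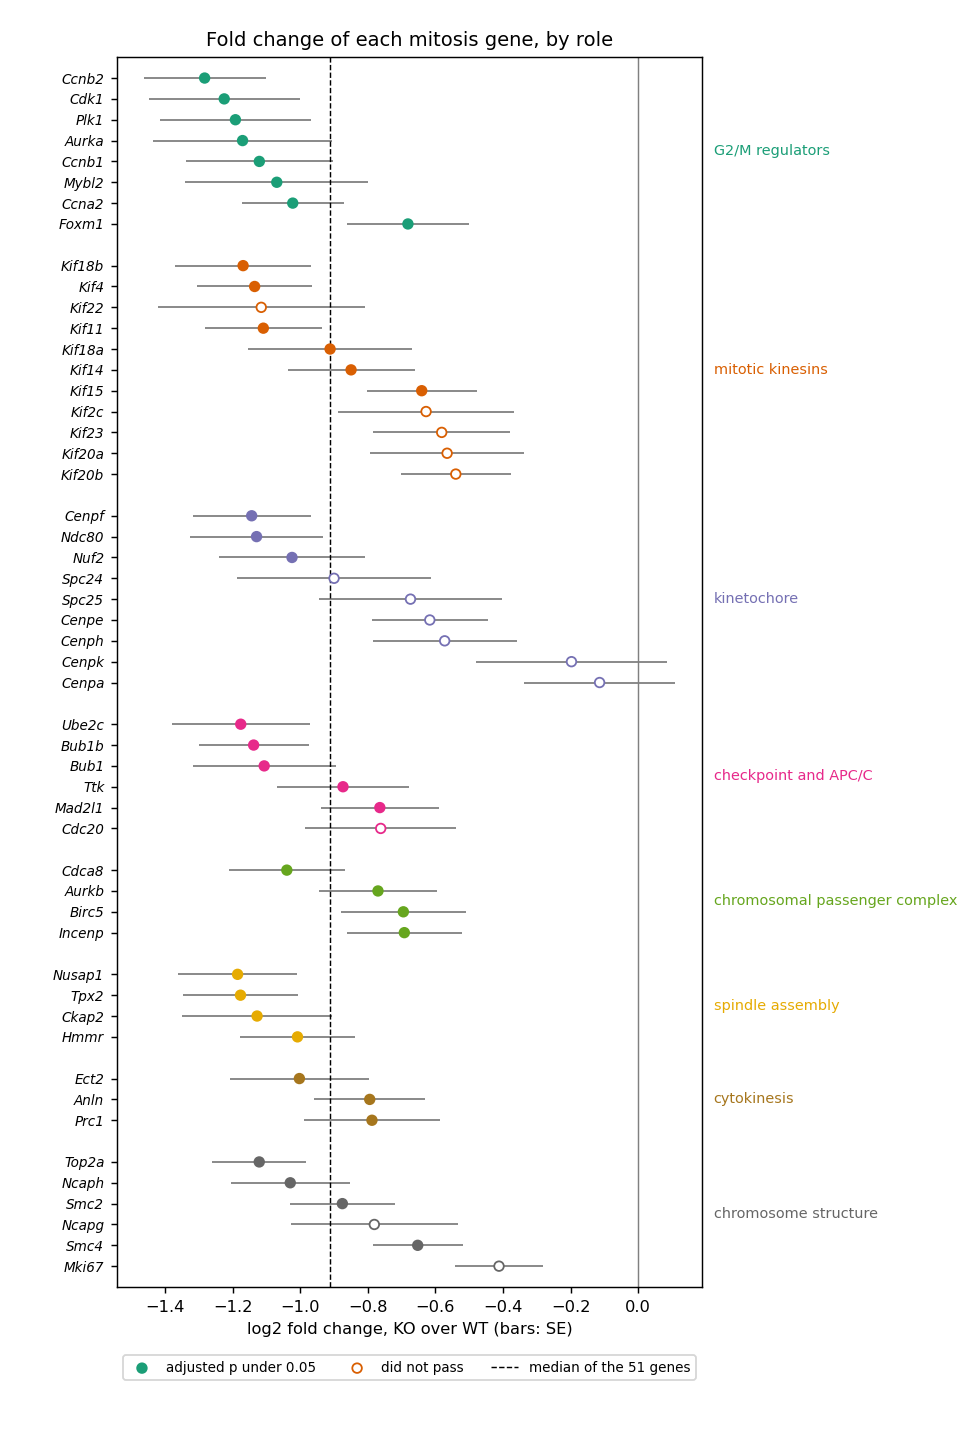
Log2 fold change of each mitosis gene, KO over WT, with its SE, grouped by role. Filled points passed an adjusted p of 0.05 and open points did not; the dashed line is the median of -0.91. All points lie left of 0, with Cenpa and Cenpk nearest to it.

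Of 6 genes of chromosome structure, 4 were lower, with a median of -0.83. Top2a, which untangles sister chromatids and had the smallest p of all members, stood at 973 and 953 CPM in WT and at 412 and 473 CPM in KO (-1.12, SE 0.14, adjusted p = 0.00110). The condensin subunit Ncaph had 89.7 and 102 CPM in WT and 46.3 and 47.8 CPM in KO (-1.03, SE 0.18, adjusted p = 0.00767). Smc2, a core subunit of both condensins, had 269 and 314 CPM in WT and 147 and 171 CPM in KO (-0.88, SE 0.16, adjusted p = 0.00972). Its partner Smc4 fell by 0.65 on the log2 scale.

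Mki67, which encodes the proliferation marker Ki-67, did not pass. It stood at 1556 and 1668 CPM in WT and at 1229 and 1195 CPM in KO (-0.41, SE 0.13, adjusted p = 0.0792), so its groups did not overlap. Ncapg, a condensin subunit, had 63.7 and 50.8 CPM in WT and 25.9 and 40.8 CPM in KO (-0.78, SE 0.25, adjusted p = 0.0802). Without WT replicate 2, 1 of the 6 was lower, against 3 without WT replicate 1.

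Per length of annotated exons, the members spanned a wide range of levels. In WT, Mki67 was highest at 160 RPKM (CPM per kilobase of exon), followed by Smc4 at 117.5 RPKM, Top2a at 107 RPKM, Ccnb2 at 72.6 RPKM and Ube2c at 71.1 RPKM. Cenpk was lowest at 3.23 RPKM, with Kif18a at 3.86 RPKM. WT level and fold change had a Spearman's rho of -0.237 across the 51 genes, which share the same libraries. The WT level also enters the fold change, so a negative value can arise without a relation between them. The KO libraries also differed from each other gene by gene: KO replicate 1 was below KO replicate 2 in 33 of the 51, and Kif22, Mybl2 and Ube2c were among those with the opposite order. Exons of 15 members overlap those of another annotated gene, and the strand setting of the counting is not given in the sources used here; the share of exon bases was largest for Kif20a (29.3%, with Cdc23), Ube2c (22.8%, with Tnnc2) and Kif4 (15.1%, with Pdzd11), and reads there cannot be assigned with certainty.

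Further genes of the mitotic machinery and of its E2F and retinoblastoma control were counted in the same way. These lists were also chosen with earlier results of these data known. In 7 lists with 125 tested genes, 23 passed on the lower side (median -0.50) and 0 on the higher side, where 1 gene, Rbl2, had an unadjusted p under 0.05. Leaving out the WT libraries in turn gave 4 and 2 lower genes, leaving out KO replicate 1 gave 38, and DESeq2 called 41 lower and Rbl2 higher. Of 16 further G2/M regulators 6 were lower (median -0.79), led by the kinase Pbk, from 102 ± 4.63 to 37.7 ± 6.71 CPM (SD, n = 2 each, log2 fold change -1.44, edgeR adjusted p = 0.00170), the Cdk1-inhibiting kinase Wee1 (-0.95) and Gtse1 (-1.99). Of 21 further spindle and cytokinesis genes 8 were lower (median -0.62), among them Ckap2l (-0.89), Tacc3 (-0.93) and Cdca3 (-1.10). Of 33 further kinetochore genes 4 were lower (median -0.58): the inner kinetochore genes Apitd1 (-1.56) and Cenpn (-1.13), and Ska3 (-0.89) and Spdl1 (-1.04), which act where kinetochores meet microtubules.

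Cohesin and separase genes gave 4 lower of 16 (median -0.45), with Sgol2a (-0.91), which protects cohesin at centromeres, the protease separase, encoded by Espl1 (-0.92), the ring subunit Smc1a (-0.60) and sororin, encoded by Cdca5 (-0.84). None of these 4 passed without either WT library. No further condensin subunit passed of 4 (median -0.39, 2 at an unadjusted p under 0.05; DESeq2 called 2); the smallest p was that of Ncapd2 (-0.59, adjusted p = 0.0527). Of 17 APC/C subunits, inhibitors and activators none passed, 4 had an unadjusted p under 0.05 on the lower side, and DESeq2 called 3 lower; their median was -0.09. The smallest p in that list belonged to Fbxo5 (-0.81, adjusted p = 0.0548), the APC/C inhibitor Emi1, Ube2s (-0.78, adjusted p = 0.0671), and Cdc27 (-0.49, adjusted p = 0.0722). The summed level of the APC/C list in KO was 87.0% of that in WT.

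Of 18 genes of the MuvB and retinoblastoma complexes and E2F factors, 1 was lower (5.56%), near the share of all genes tested (3.01%). This was Tfdp1, the partner of E2F proteins, which went from 311 ± 22.1 to 193 ± 44.9 CPM (SD, n = 2 each, log2 fold change -0.68, edgeR adjusted p = 0.0404). The median of the list was -0.32. Rbl2, which encodes the p130 protein of resting cells, had 132 ± 5.05 CPM in WT and 188 ± 3.09 CPM in KO (SD, n = 2 each, log2 fold change 0.51, edgeR adjusted p = 0.0616), and E2f7 was at -0.72 (adjusted p = 0.0676). The call of Tfdp1 was lost without WT replicate 1, WT replicate 2 or KO replicate 2 and with upper quartile factors; leaving out KO replicate 1 gave 6 lower genes.

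For comparison with the phases before mitosis, 17 of 32 genes of DNA replication were lower (median -0.78), led by the sliding clamp Pcna, from 575 ± 10.03 to 286 ± 36.3 CPM (SD, n = 2 each, log2 fold change -1.01, edgeR adjusted p = 0.00301), the ligase Lig1 (-1.06) and the ribonucleotide reductase subunit Rrm1 (-0.78). Leaving out WT replicate 1 gave 2, and leaving out the other WT library gave 4. Of 13 tested G1 cyclins, kinases and inhibitors 2 were lower (median -0.39), Cdk4 (-0.88, adjusted p = 0.0153) and the inhibitor Cdkn1a, whose WT mean of 70.2 ± 56.7 CPM (SD, n = 2) rests on libraries that differed widely; Ccnd3 was at -0.80 (adjusted p = 0.0610). That count was 5 without KO replicate 1 and 1 without either WT library. Whether the mitosis genes changed more than the replication genes was not tested.

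**Figure D5:**
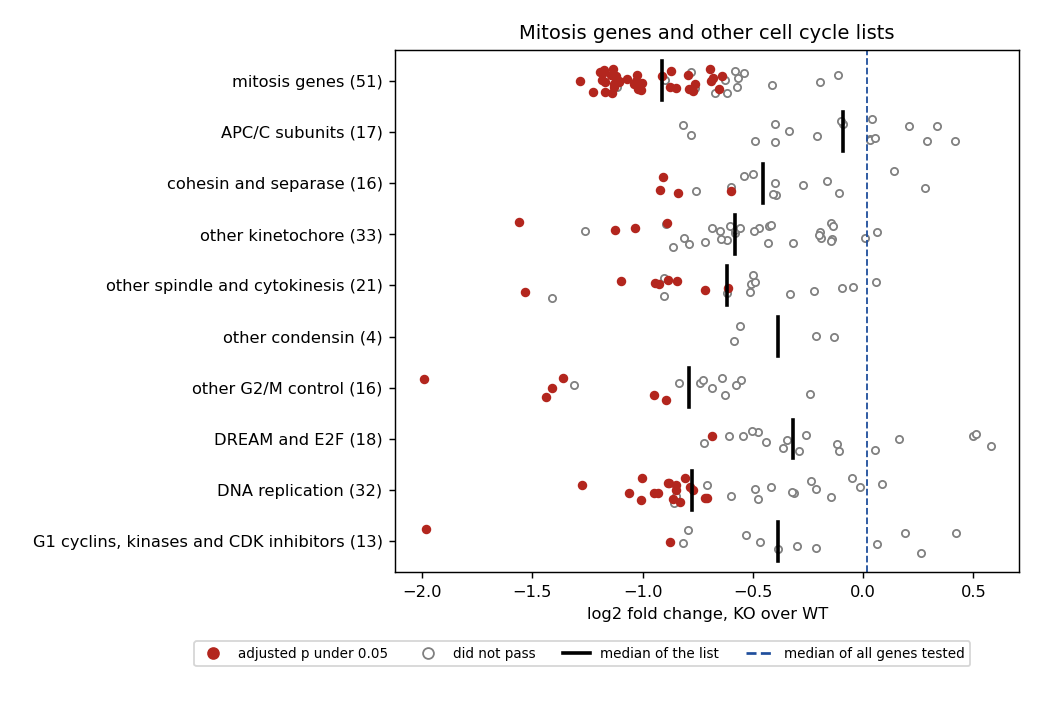
Log2 fold change of every tested gene in the 51 mitosis genes and in 9 other cell cycle lists, with the number of genes in brackets. Red points passed an adjusted p of 0.05, black bars are list medians, and the dashed line is the median of all genes tested (0.02); the medians run from -0.91 for the mitosis genes to -0.09 for the APC/C list.

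Markers of several cell types also differed between WT and KO. Among all genes tested, 3.01% were lower and 3.77% were higher. B lineage markers were lower in 12 of 13, with a summed level of 1137 and 1142 CPM in WT and 359 and 269 CPM in KO; Cd79b, at -0.77, was the member that did not pass. Dendritic cell markers were higher in 6 of 9, with sums of 136 and 136 CPM in WT and 1044 and 857 CPM in KO, and mast cell markers in 6 of 7, with sums of 19.0 and 15.7 CPM in WT and 183 and 113 CPM in KO. Of 12 stem cell markers only Vwf passed, on the higher side (1.44, edgeR adjusted p = 0.0452). The median of the 12 was 0.16, and 3 were negative. Their sums were 1851 and 1967 CPM in WT and 2248 and 1987 CPM in KO. No marker of these 4 lists was at 0 in every library. The part of these cells in the change of the mitosis genes was not tested.

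Among the other lists, 2 of 9 tested erythroblast markers were higher, with sums of 189 and 485 CPM in WT and 989 and 569 CPM in KO. Hba-a1 was at 0 in all libraries. Of 9 neutrophil markers 5 were higher, and 8 were higher at an unadjusted p under 0.05 in edgeR. Mpo was lower, the only negative one. The sums were 1690 and 1702 CPM in WT and 1738 and 1462 CPM in KO. Most of each sum was Mpo, at 1353 and 1235 CPM in WT and 878 and 799 CPM in KO. Monocyte and macrophage markers were higher in 3 of 7, with sums of 56.3 and 65.3 CPM in WT and 180.0 and 164.5 CPM in KO. No marker of 4 tested T and NK cell markers passed (1 at an unadjusted p under 0.05, on the higher side), and Itga2b was the higher one of 4 tested megakaryocyte markers. The part of these cells was not tested either.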

How the data were processed

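For each gene symbol the deposited file gives the raw count of reads in 4 libraries, as whole numbers, and it has no summary row for reads outside genes. The submitters' processing notes name mm10 as genome build and TopHat2 (version 2.1.1), SAMtools (1.5), Picard (2.9.4) and HTSeq (0.8.0). Which annotation and strand setting were used, and whether duplicates were removed, is not given in the sources used here. Groups and replicate numbers came from the labels. Counts were tested with edgeR 4.0.16 (R 4.3.3): TMM factors, filterByExpr (minimum count 10, minimum total 15), the quasi-likelihood test of KO against WT, and Benjamini-Hochberg adjustment over the 14140 genes tested, threshold 0.05. The fit was also run on counts simulated with its own dispersion estimates. Such a run does not check the calls made on these 4 libraries. A floor of 3 counts is between 0.101 and 0.169 CPM, for counting error only. CPM use TMM-scaled libraries, RPKM the exon length in GENCODE M21. Alternatives were other factors and filters, DESeq2 1.42.0, a replicate block, Rn45s and Xist left out, and each library left out. The members, lists and roles were chosen with earlier results of these data known. Named in full are, per role, up to 3 called members with the smallest p and the member with the largest p, and in other lists the 3 smallest p; others were chosen after their values were seen.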

Additional observations from a re-analysis of the deposited data

How the results depend on the processing

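The 51 mitosis genes kept a negative median in every setting run, from -1.02 without KO replicate 2 to -0.83 with upper quartile factors, and Zfp521 stayed between -2.39 and -2.04. With upper quartile factors the median of all genes tested was 0.10, against 0.02 with TMM factors. Over all genes these factors gave 289 lower and 664 higher calls, against 425 and 533 with TMM. The sign of 1 member turned: Cenpa was at 0.125 without KO replicate 1, and at -0.42 without KO replicate 2. The count of lower members was 30 with upper quartile factors, 44 in DESeq2, 45 with no filter, and from 13 to 39 with 1 library left out. With each library left out, lower genes numbered 2 to 8 of the regulators, 2 to 7 of the kinesins, 1 to 6 of the kinetochore genes, 1 to 6 of the checkpoint genes, 0 to 4 of the passenger complex, 2 to 4 of the spindle assembly genes, 0 to 3 of the cytokinesis genes and 1 to 5 of the chromosome structure genes; for the other lists they were 0 to 2 (APC/C), 0 to 5 (cohesin), 0 to 8 (kinetochore), 0 to 8 (spindle), 0 to 2 (condensin), 2 to 9 (G2/M), 0 to 6 (DREAM and E2F, with 0 to 1 higher), 2 to 23 (replication), 1 to 5 (G1) and 2 to 38 (the 7 mitotic lists together, 0 to 1 higher).

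Upper quartile factors gave 2 lower genes of the passenger complex, 2 of the other kinetochore list, and 0 lower and 1 higher of DREAM and E2F. With no filter the lower genes were 5 kinetochore members, 3 APC/C, 7 cohesin, 13 other kinetochore, 2 condensin, 3 DREAM and E2F (1 higher), 4 G1 and 46 of the 7 lists together. DESeq2 gave 5, 3, 9 other kinetochore, 2 condensin, 3 DREAM and E2F (1 higher) and 41 together, and the stricter filter gave 1 higher gene of DREAM and E2F; that gene is not part of the 51. The cause of these differences was not tested.

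The labels number the replicates but do not say that a number pairs samples, and the deviations of same-numbered libraries correlated at 0.076 across genes. With the replicate block, 46 mitosis genes were lower (median -0.90), 6 of them kinetochore genes, and in the other lists 4 APC/C, 9 cohesin, 13 kinetochore, 2 condensin, 10 G2/M, 5 DREAM and E2F (1 higher), 5 G1 and 55 of the 7 lists together; over all genes the block gave 1314 lower calls in place of 425. Without a filter 987 genes were lower, in DESeq2 792, and without a single library from 95 to 1161. On the gene strand alone 25 of 43 genes had a CHR match and 22 a CCAAT match, against 13.2% and 23.7% of all genes. In the 200 bases nearest the start, on both strands, 31 and 30 of the 43 had one. Over the full promoter window 21.7% and 41.1% of all genes had one, and the shorter window inside it cannot hold more. There were 2 libraries a group, which limits every error given here.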
